A study of Mus musculus with 2 samples.

Results

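Interferon-induced macrophages of a mouse breast tumour, cells that make the chemokines Cxcl9, Cxcl10 and Cxcl11 and the antiviral enzyme Rsad2, were picked out of a single-cell RNA library by a gate on those 4 genes. Of 10835 cells that the authors kept in the treated library, 205 passed, which was 1.89% (95% exact interval 1.64% to 2.17%). A cell passed when it held 10 or more UMIs (unique molecular identifiers, each counting 1 captured transcript) of the 4 genes together and 5 or more of the macrophage genes Lyz2, Csf1r and Apoe. It also had to hold under 2% of its UMIs in the neutrophil genes S100a8, S100a9, Csf3r and G0s2, and under 0.5% in the fibroblast genes Col1a2, Col3a1 and Dcn. The values of these 14 genes chose the cells, so they are given as a description and were left out of every count.

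The series held 2 libraries, 1 of wild-type subcutaneous 4T1 tumour tissue under the treatment labelled PCN, which the series title calls PATCH, and 1 of such tissue given PBS in its place. 4T1 is a mouse mammary carcinoma line that grows in mice with an intact immune system. The labels give neither the mouse strain, age nor the number of animals, and do not say what PCN is. The counts of the PBS library were not analysed here, so nothing below compares the treatments. Of the barcodes kept in the 2 libraries 33 were the same, and no selected cell was among the barcodes listed for PBS. All cells came from 1 library, so intervals cover counting error only and no difference was tested.

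Interferons are secreted proteins that signal a viral infection, released nucleic acid or an immune attack to nearby cells. Type I interferons act through the receptor Ifnar and a complex that includes Stat2 and Irf9 and binds the interferon-stimulated response element in promoters, whereas interferon gamma, made by T and NK cells, acts through Ifngr. Isg15, the Ifit proteins, Mx1 and Rsad2 are classical products of type I signalling. Cxcl9 and the MHC class II activator Ciita respond chiefly to interferon gamma, and Cxcl10 to both. Cxcl9, Cxcl10 and Cxcl11 attract activated T and NK cells that carry the receptor Cxcr3, and macrophages in tumours are a known source of them.

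The promoter windows of 6 genes are printed because the selected cells differed among themselves in which of them they carried. Each window runs from 250 bases before to 50 bases after the transcription start in RefSeq annotation of GRCm38.p6, 5′ to 3′ on the strand of the gene. Capitals mark a match to the core of the interferon-stimulated response element, GAAANNGAAA, on either strand.
Cxcl9, chr5:92328030-92328329, minus strand: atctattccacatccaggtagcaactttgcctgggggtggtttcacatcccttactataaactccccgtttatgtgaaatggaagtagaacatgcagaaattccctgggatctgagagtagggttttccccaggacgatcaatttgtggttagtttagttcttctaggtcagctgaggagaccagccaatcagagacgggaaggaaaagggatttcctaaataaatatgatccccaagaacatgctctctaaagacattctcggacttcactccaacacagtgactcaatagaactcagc
Cxcl10, chr5:92348840-92349139, minus strand: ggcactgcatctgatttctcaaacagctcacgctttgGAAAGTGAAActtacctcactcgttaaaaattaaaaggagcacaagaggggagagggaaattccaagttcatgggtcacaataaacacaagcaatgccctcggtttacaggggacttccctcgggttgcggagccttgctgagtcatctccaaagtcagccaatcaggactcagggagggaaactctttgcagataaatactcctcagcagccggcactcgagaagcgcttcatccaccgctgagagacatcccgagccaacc
Rsad2, chr12:26456403-26456702, minus strand: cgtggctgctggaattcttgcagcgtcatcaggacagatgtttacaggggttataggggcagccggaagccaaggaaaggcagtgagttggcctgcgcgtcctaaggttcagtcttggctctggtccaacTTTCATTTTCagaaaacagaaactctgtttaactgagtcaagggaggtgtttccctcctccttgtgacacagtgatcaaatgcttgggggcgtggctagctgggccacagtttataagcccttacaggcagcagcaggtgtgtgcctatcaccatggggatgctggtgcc
Ifit1, chr19:34640639-34640938, plus strand: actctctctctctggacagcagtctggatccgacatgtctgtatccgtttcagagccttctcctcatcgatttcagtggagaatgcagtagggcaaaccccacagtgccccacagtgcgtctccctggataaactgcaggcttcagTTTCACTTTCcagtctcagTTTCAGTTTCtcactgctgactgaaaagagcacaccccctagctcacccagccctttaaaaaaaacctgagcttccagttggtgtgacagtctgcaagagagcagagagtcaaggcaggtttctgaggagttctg
Isg15, chr4:156200769-156201068, minus strand: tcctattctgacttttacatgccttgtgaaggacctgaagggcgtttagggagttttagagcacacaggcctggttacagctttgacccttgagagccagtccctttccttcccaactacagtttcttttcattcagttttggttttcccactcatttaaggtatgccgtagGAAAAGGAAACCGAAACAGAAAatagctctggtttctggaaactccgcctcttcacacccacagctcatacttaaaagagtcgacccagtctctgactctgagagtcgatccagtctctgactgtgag
Gbp2, chr3:142620413-142620712, plus strand: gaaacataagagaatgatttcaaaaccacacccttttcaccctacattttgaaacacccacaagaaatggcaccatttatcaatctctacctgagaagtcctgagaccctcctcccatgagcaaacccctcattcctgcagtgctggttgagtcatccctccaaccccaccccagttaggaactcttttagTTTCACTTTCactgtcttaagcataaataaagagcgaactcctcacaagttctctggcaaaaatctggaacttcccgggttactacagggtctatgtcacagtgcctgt
The Cxcl9 window held no match, and those of Cxcl10, Rsad2 and Gbp2 held 1 each, starting 213, 120 and 59 bases before the start. Ifit1 had 2 matches, and Isg15 had 3 that overlap. Among all 32851 promoter windows of the RefSeq table, 3.44% held the motif. A match is a run of letters, not a shown binding site, and its absence concerns this window alone.

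The selected cells were deep. They held a median of 9649 UMIs (lowest 2138, highest 19907), against 7253 in the 5002 other macrophages that passed the same lineage, neutrophil and fibroblast gates. Over 4 equal bins of these 5207 macrophages by depth, the selected cells made up 0.998%, 4.30%, 4.76% and 5.68%, lowest in the shallowest bin, where 10 UMIs are harder to reach. The wider set that the rule names, all 5494 other cells with 5 or more UMIs of Lyz2, Csf1r and Apoe, had a median of 7019.5 UMIs, and 492 of them failed the neutrophil or fibroblast gate. Except where stated, values below are set against the 5002 other macrophages, which differ from the selected cells by the interferon gate alone.

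The 4 selecting genes summed to a median of 23 UMIs in a selected cell (quartiles 14 and 45, highest 309). Cxcl9 stood at 641 CPM (UMIs of the gene per 1000000 UMIs of a group) in the selected cells and 4.24 CPM in the other macrophages. Cxcl10 stood at 1619 CPM against 19.3 CPM, Cxcl11 at 411 CPM against 3.55 CPM, and Rsad2 at 863 CPM against 14.2 CPM. Not every selected cell carried each of them. A UMI of Cxcl10 was found in 82.4% of the selected cells, of Rsad2 in 64.4%, of Cxcl9 in 49.8% and of Cxcl11 in 46.8%. Cxcl10 gave the most UMIs in 89 cells, Rsad2 in 45, Cxcl9 in 43 and Cxcl11 in 23, and 5 cells were tied.

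The cells on either side of the gate were alike in some genes and apart in others. There were 39 cells just inside it, with 10 to 12 UMIs of the 4 genes, and 52 just outside, with 7 to 9. Isg15, a ubiquitin-like protein outside the rule, stood at 201 CPM in the cells just inside and 345 CPM in those just outside. Type I interferon effectors took 0.665% of UMIs just inside and 0.803% just outside. The chemokine Ccl5, in contrast, stood at 152 CPM just inside and 46.5 CPM just outside. The haem oxygenase Hmox1 stood at 331 CPM just inside and 611 CPM just outside, and alternative activation genes took 0.646% against 0.917% of UMIs. In 45 further kept cells the 4 genes reached 10 UMIs but another gate failed, the neutrophil gate in 22, the lineage gate in 39 and the fibroblast gate in 7.

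**Figure D1:**
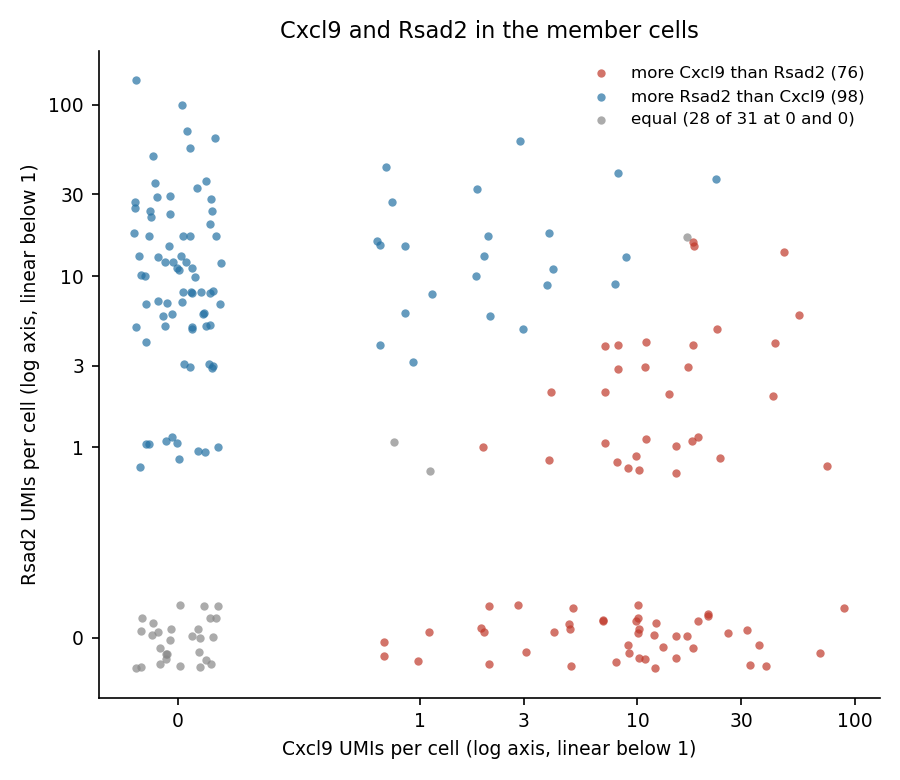
Each point is 1 of the 205 selected cells, with its Cxcl9 UMIs on the x axis and its Rsad2 UMIs on the y axis, both on log axes that are linear below 1, with small random offsets and colours for which gene had more. Most points lie along an axis, 65 cells had no Cxcl9 and 3 or more Rsad2 UMIs, 37 had 3 or more Cxcl9 and no Rsad2, and 23 had 3 or more of both.

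Of the selected cells 204 held 2 or more UMIs of macrophage markers that the gate did not read. The lineage genes Lyz2, Csf1r and Apoe chose both groups, so their levels say nothing of the label. The other 9 monocyte and macrophage markers took 0.854% of UMIs in the selected cells and 0.649% in the other macrophages. They took 0.0310% in 3106 neutrophil-gate cells with under 5 UMIs of Lyz2, Csf1r and Apoe, a group chosen partly for scarce macrophage genes. Of the 9 markers, the lysosomal protein Cd68 was found in 160 of the 205 selected cells. Ly6c2, a surface protein of inflammatory monocytes, stood at 237 CPM against 24.5 CPM, a ratio of 9.67 (8.66 to 10.8). Serpina3g, an interferon-induced protease inhibitor, stood at 243 CPM against 6.92 CPM, a ratio of 35.1 (30.3 to 40.8). Both were given as markers with the rule, though the gate did not read them. Ly6c2 was detected in 84 of the 205 cells and Serpina3g in 99, so neither marked the whole set.

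Markers of other cell types were low in both groups. T cell genes took 0.000769% of UMIs in the selected cells and 0.00134% in the other macrophages, and 1 selected cell held 2 or more UMIs of them. Trac, Trbc2, Cd8a and Cd8b1 were at 0, and so were the NK genes Ncr1, Prf1 and Eomes. Conventional dendritic cell markers took 0.00803% against 0.00780%, of which 89.2% in the selected cells was Wdfy4. Plasmacytoid dendritic cell markers took 0.0816% against 0.0502%, but that list holds Bst2, itself interferon-induced, and Siglech, Klk1 and Pacsin1 were at 0. Mature dendritic cell markers took 0.0102% against 0.00745%, of which 54.7% in the selected cells was Socs2. Endothelial markers took 0.0117% against 0.00587%. Of the selected cells 20% held 2 or more UMIs of endothelial markers, against 5.90% of the other macrophages, and the highest share in a selected cell was 0.512%. Neutrophil markers took 0.0965% against 0.0879%, but that list holds S100a8, S100a9, Csf3r and G0s2, which the gate kept low in both groups. Osteoclast-like markers took 0.0610% against 0.0751%, and 3 selected cells held 10 or more UMIs of them. The part of such admixture in the ratios below was not tested, apart from the settings given under the processing.

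To compare shares at equal depth, each cell was thinned to 2000 UMIs, which left out 345 of the other macrophages and no selected cell. Cxcl9 was then found in 34.6% of the selected cells (49.8% unthinned) and 0.752% of the other macrophages (1.98%). In 921 of the neutrophil-gate cells with under 5 UMIs of the lineage genes, which should lack Cxcl9, the share was 0.217%. Their median was 1594 UMIs before the 2185 shallower ones were left out. Ly6c2 was found in 29.3%, 3.93% and 1.63% of these 3 groups, and Serpina3g in 27.8%, 1.01% and 0.217%. Isg15 was found in 45.9% of the selected cells, 5.99% of the other macrophages and 24.5% of the neutrophil-gate cells. Ly6c2 was thus scarcer in neutrophil-gate cells than in either macrophage group. Isg15 was scarcer in neutrophil-gate cells than in the selected cells but more frequent than in the other macrophages. Cxcl9 and Serpina3g were scarcer there than in the selected cells, but the gate read Cxcl9, so for Cxcl9 this follows from the selection. They were found in 2 neutrophil-gate cells each, and their intervals, 0.0263% to 0.782%, overlapped those of the other macrophages.

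Genes were counted when they differed by 2-fold or more and reached 5 CPM in the UMIs of both groups together. A gene under 5 CPM in the other macrophages could thus enter through the selected cells alone. Cmpk2, Klrk1, Tmem171, C4b and Serping1 were among the genes that did. Of 9460 genes, 353 were higher in the selected cells (3.73%) and 449 lower (4.75%) than in the other macrophages. The median log2 ratio was −0.12, and scaling to the median ratio instead gave 423 higher and 322 lower. Ratios of 4-fold or more were reached by 114 higher and 57 lower genes. One cell gave 25% or more of the selected cells' UMIs for 22 of the higher and 135 of the lower genes, which are mostly scarce. Against all 5494 other lineage cells, 346 of 9632 genes were higher (3.59%) and 631 lower (6.55%), with a median of −0.11. These percentages are the background for the lists that follow.

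Type I interferon effectors, the proteins that block viral replication inside the cell, were higher almost throughout: 35 of 36 measured genes were higher and none lower, with a median log2 ratio of 2.49. Ifitm2 was the exception at 0.26. Cmpk2, a mitochondrial nucleotide kinase that neighbours Rsad2 in the genome, stood at 82.7 CPM in the selected cells and 1.85 CPM in the other macrophages, a ratio of 44.7 (33.9 to 59.5). Ifit2, which binds viral RNA, stood at 200 CPM against 7.27 CPM, a ratio of 27.5 (23.6 to 32.1). Ifit3, its partner, reached 183 CPM against 7.12 CPM. Isg15 stood at 570 CPM against 38.8 CPM. The list as a whole took 1.02% of UMIs in the selected cells and 0.329% in the other macrophages. Single selected cells ranged widely, from 0.0975% to 4.05% with a median of 0.925%, and the other macrophages from 0 to 3.51% with a median of 0.268%, so the groups overlapped.

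Interferon-induced GTPases, which attack the vacuoles of intracellular microbes, were the list with the highest median. All 14 measured were higher, with a median log2 ratio of 3.28 and a range of 2.18 to 3.86. Gbp2b stood at 485 CPM against 33.4 CPM, a ratio of 14.5 (13.4 to 15.8). Gbp4 had a ratio of 12.9 (11.4 to 14.6), and Iigp1 stood at 262 CPM against 20.5 CPM. The list took 0.244% of UMIs against 0.0269%. Gbp2 and Gbp2b, and several other members of this and the Ifi20x, Slfn, H2-Q and Ly6 families, are similar or near-identical in sequence, so the split of reads among them is uncertain.

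The signalling chain was uneven. Of 20 interferon receptor and JAK-STAT genes, 7 were higher and none lower. The higher ones included the transcription factors Stat2, Irf1, Irf7, Irf8 and Batf2 and the feedback inhibitor Socs1. Irf7, the amplifier of type I interferon production, stood at 277 CPM against 32.7 CPM, a ratio of 8.47 (7.67 to 9.35). The receptors did not pass 2-fold: Ifnar1 stood at 110 CPM against 104 CPM, and Ifngr1 at 124 CPM against 162 CPM. The ligands were almost undetected in the selected cells, with 2 UMIs of Ifnb1 and none of Ifng or Ifna4.

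Sensors of foreign nucleic acid were higher in 11 of 20, and none was lower, with a median log2 ratio of 1.18. Zbp1, which senses Z-form nucleic acid, stood at 169 CPM against 34.6 CPM. The RNA sensors Ifih1 and Rigi had ratios of 4.51 (4.01 to 5.06) and 4.37 (3.69 to 5.16). The adaptors and kinases downstream, Mavs, Myd88, Ticam1, Tbk1 and Irf3, lay within 2-fold, and so did Cgas and the endosomal receptors Tlr7 and Tlr13. Of the cell death list, 3 of 20 were higher and none lower, among them Daxx at a ratio of 4.66 (4.06 to 5.32) and Mlkl, the effector of necroptosis, at 3.08 (2.43 to 3.86).

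**Figure D2:**
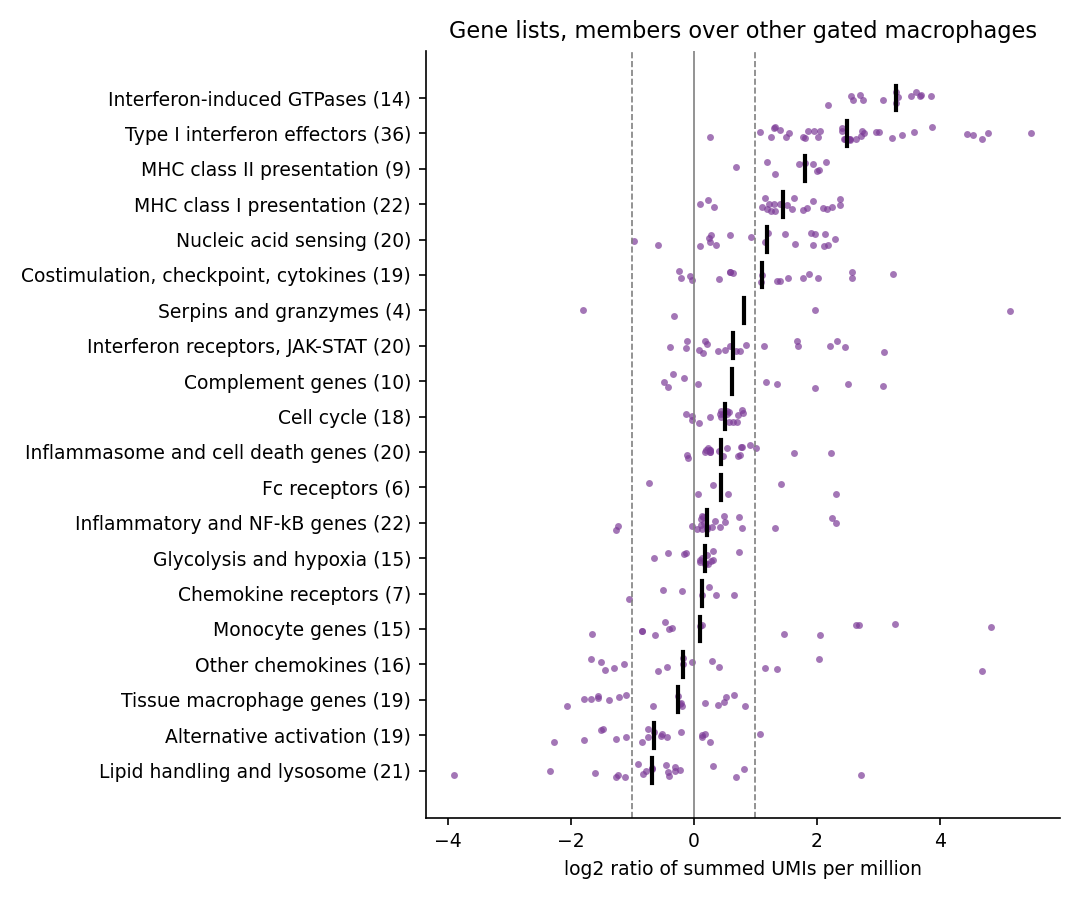
Each point is 1 gene, placed on the x axis by its log2 ratio of CPM in the 205 selected cells over the 5002 other macrophages, with 1 row for each gene list and the number of genes measured in brackets; the bars are list medians and the dashed lines mark 2-fold. All GTPase genes lie right of 2-fold, and the lipid and alternative activation lists have the lowest medians, −0.67 and −0.65.

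Antigen presentation was higher on both arms. Of 22 MHC class I genes, 19 were higher and none lower, with a median log2 ratio of 1.46. The peptide transporter Tap1 stood at 204 CPM against 39.1 CPM, a ratio of 5.21 (4.67 to 5.80). The non-classical class I genes H2-T23 and H2-T22 had ratios of 5.18 (4.50 to 5.96) and 4.72 (3.99 to 5.56). The classical heavy chains H2-K1 and H2-D1 stood at 2387 and 2192 CPM in the selected cells, against 952 and 960 CPM in the other macrophages. Calr and Pdia3, general chaperones of the endoplasmic reticulum, and Erap1 lay within 2-fold.

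Of 9 MHC class II genes, 8 were higher, and Ctss, the protease that trims the invariant chain, lay within 2-fold at 1.60 (1.56 to 1.65). H2-Eb1 stood at 1025 CPM against 231 CPM, H2-Ab1 at 726 CPM against 177 CPM and the peptide exchanger H2-DMb1 at 135 CPM against 33.8 CPM. Their transactivator Ciita stood at 15.9 CPM against 4.58 CPM. Class II was unevenly spread over the selected cells: it took a median of 0.456% of UMIs, with quartiles of 0.222% and 1.24% and a highest value of 4.71%. H2-Ab1 was found in 107 of the 205 cells.

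Genes that speak to lymphocytes were higher in 11 of 19, and none was lower. Il18bp, which neutralises interleukin 18, stood at 112 CPM against 11.8 CPM, a ratio of 9.45 (8.04 to 11.1). The costimulatory receptor Cd40 stood at 86.1 CPM against 14.5 CPM and Slamf8 at 63.9 CPM against 10.8 CPM. Cd274, which encodes the checkpoint ligand PD-L1, stood at 628 CPM against 183 CPM, a ratio of 3.43 (3.23 to 3.64). At 2000 UMIs Cd274 was found in 61.0% of the selected cells, 23.8% of the other macrophages and 44.3% of neutrophil-gate cells. The T cell growth factor Il15 and its presenting receptor Il15ra had ratios of 4.02 (3.39 to 4.74) and 3.63 (2.70 to 4.79). Cd80 and Cd86, the ligands of CD28, lay within 2-fold. Cd274, Il15 and Il15ra, like Ciita and the other genes that fall outside the rule for naming genes, were chosen after their values were seen.

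Other chemokines differed in both directions, 4 higher and 5 lower of 16. Ccl5, an attractant of T cells, stood at 228 CPM against 8.87 CPM, a ratio of 25.7 (22.4 to 29.6), and was found in 61 of the selected cells. Ccl12, a monocyte attractant, stood at 999 CPM against 244 CPM, and Ccl4 and Cxcl16 were also higher. The lower ones were Pf4, at 835 CPM against 2675 CPM, Ccl24, at 335 CPM against 957 CPM, Cxcl3, Ccl6 and Ccl9. The monocyte attractants Ccl2 and Ccl7 lay within 2-fold. Of 7 chemokine receptors, Ackr3 was lower at 23.1 CPM against 48.4 CPM and the rest lay within 2-fold, Ccr2 at 255 CPM against 233 CPM.

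Monocyte genes were mixed, 6 higher and 1 lower of 15, with a median log2 ratio of 0.10. The higher ones included members of the Ly6 family. Ly6a, known as Sca-1, stood at 913 CPM against 32.0 CPM, a ratio of 28.6 (26.6 to 30.7), although against all other lineage cells the ratio was 12.7. Gpr141 had a ratio of 6.45 (5.68 to 7.31), and Plac8 stood at 2337 CPM against 377 CPM. F13a1, a clotting factor subunit of monocytes, was lower at 107 CPM against 337 CPM. Vcan and Chil3, also typical of monocytes, lay within 2-fold, at 92.8 CPM against 168 CPM and 78.4 CPM against 109 CPM.

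Genes of settled tissue macrophages were lower in 8 of 19 and higher in none. Without genes of which 1 cell gave 25% or more of the UMIs in the selected cells, 4 of 15 were lower. The scavenger receptor Mrc1 stood at 287 CPM against 991 CPM, a ratio of 0.289 (0.266 to 0.314). Cd163, the haemoglobin receptor, stood at 24.5 CPM against 104 CPM, but 1 cell gave 37.3% of its UMIs in the selected cells. Folr2, Lyve1, Gas6, Selenop and Cbr2 were also lower, but for some of these 1 cell likewise gave 25% or more of the UMIs. The list as a whole took 0.996% of UMIs in the selected cells and 1.13% in the other macrophages. The complement starter genes C1qa, C1qb and C1qc lay within 2-fold, C1qa at 2923 CPM against 2090 CPM.

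Alternative activation and tumour macrophage genes were lower in 6 of 19 and higher in 1, with a median log2 ratio of −0.65. Hmox1, which degrades haem, stood at 251 CPM against 1212 CPM, a ratio of 0.207 (0.190 to 0.226), and at 2000 UMIs it was found in 29.3% of the selected cells against 52.3% of the other macrophages. Arg1 and Spp1 lay within 2-fold, at 574 CPM against 1034 CPM and 3619 CPM against 6093 CPM. Among lipid and lysosome genes, 6 of 21 were lower and 1 higher. The fatty acid carrier Fabp4 stood at 11.5 CPM against 175 CPM, but with a gate at 5 UMIs its log2 ratio turned to 1.73. The lipid scavenger Cd36 stood at 42.8 CPM against 217 CPM, whereas Ch25h, an interferon-induced enzyme that makes an antiviral oxysterol, stood at 89.4 CPM against 13.7 CPM.

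Inflammatory genes mostly lay within 2-fold. Of 22, 3 were higher and 2 lower. Acod1, which makes itaconate, stood at 409 CPM against 82.4 CPM. Nos2, the inducible nitric oxide synthase, stood at 72.1 CPM against 15.2 CPM, and Tnf at 226 CPM against 91.2 CPM. Il6 and Saa3 were lower, at 30.8 CPM against 73.1 CPM and 249 CPM against 597 CPM. Il1b, Ptgs2 and Nfkbia were among the 17 within 2-fold.

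Of 10 complement genes, 5 were higher, among them Cfb, the enzyme of the alternative pathway, at 192 CPM against 22.8 CPM and C4b at 26.4 CPM against 4.71 CPM. For Serping1, the C1 inhibitor, 1 cell gave 81.1% of the UMIs, and its ratio of 3.88 became 0.377 against all other lineage cells, which include those that failed the fibroblast gate. Of 6 Fc receptors, Fcgr4 and Fcgr1, activating receptors for IgG, were higher with ratios of 4.97 (4.68 to 5.28) and 2.66 (2.46 to 2.87). Among 4 serpins and granzymes measured, Serpina3g and Serping1 were higher and Serpinb6a lower. None of 18 cell cycle genes or 15 glycolysis and hypoxia genes passed 2-fold in either direction. Against all other lineage cells the list counts differed by at most 2 genes in either direction.

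Outside the lists the highest ratios were those of Calhm6, a channel protein, at 22.5 (18.6 to 27.2), Klrk1, which encodes the receptor NKG2D, at 19.5 (15.4 to 24.7), and the noncoding transcript AW112010, with an interval of 12.5 to 13.6. AW112010 was also abundant, at 2025 CPM against 155 CPM, and was found in 170 of the 205 cells. Csmd1 had a ratio of 9.11, but 1 cell gave 97.9% of its UMIs. Ly6c1 followed at 7.74 (6.62 to 9.03), then Tmem171, Slco3a1, Scimp, Plaat3 and Rnase6 between 6.31 and 7.02. The lowest were scarce: Jchain and Car4 had no UMI in the selected cells, at 12.8 and 10.2 CPM in the other macrophages. Igkc, an antibody light chain, stood at 4.33 CPM against 107 CPM. Without cells that held 2 or more UMIs of lymphocyte markers the log2 ratio of Igkc turned to 0.74 and that of Jchain to 0.052. Cfd, Cxcl5, Arsg, Cldn4, Csgalnact1, Slco2a1 and Apod had 4 UMIs or fewer each in the selected cells, and over all barcodes the log2 ratios of Csgalnact1 and Slco2a1 turned to 0.0051 and 0.39.

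**Figure D3:**
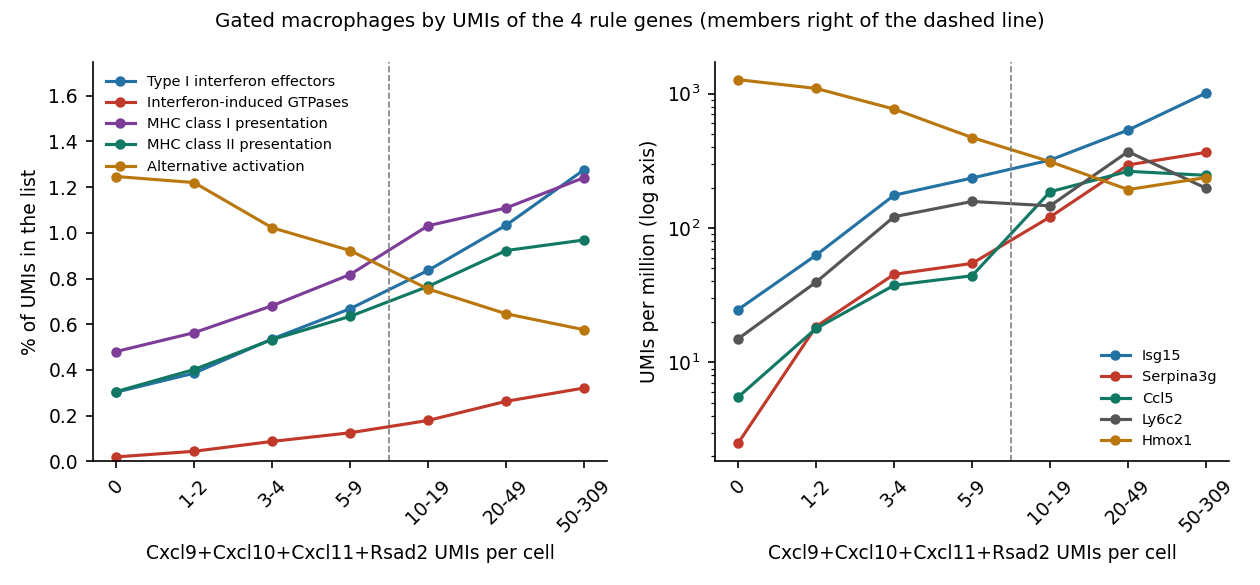
Gated macrophages are binned along the x axis by their summed UMIs of Cxcl9, Cxcl10, Cxcl11 and Rsad2, with the selected cells right of the dashed line; the left y axis gives the percentage of UMIs in 5 gene lists and the right y axis CPM of 5 genes on a log axis. The interferon and MHC lists climb over the bins, type I effectors reaching 1.28%, and alternative activation genes decline to 0.576%.

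Type I effectors rose gradually over wide bins of the selecting genes, whereas Ccl5 had its widest step at the interferon gate. In the narrow bins beside the gate type I effectors did not rise, at 0.803% just outside and 0.665% just inside. Over bins of 0, 1 to 2, 3 to 4, 5 to 9, 10 to 19, 20 to 49 and 50 to 309 UMIs of the selecting genes, type I effectors took 0.303%, 0.386%, 0.536%, 0.668%, 0.835%, 1.03% and 1.28% of UMIs. MHC class II genes took 0.305% in the lowest and 0.969% in the highest bin. Hmox1 stood at 1268, 1092, 766, 471, 311, 193 and 237 CPM over the same bins. Ccl5 stood at 5.52, 17.9, 37.5, 44.1, 186, 264 and 246 CPM. Tissue macrophage genes showed no such order, between 0.897% and 1.15%. The bins at 0 and at 50 or more held 4288 and 47 cells, with median depths of 6918 and 10840 UMIs, and the part of depth was not tested.

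Many selected cells carried Cxcl9 or Rsad2 without the other, as the plot of both genes by cell shows. Cxcl9 UMIs outnumbered those of Rsad2 in 76 cells, called Cxcl9-led here, and Rsad2 outnumbered Cxcl9 in 98, called Rsad2-led. The sides overlapped: Rsad2 was found in 40.8% of Cxcl9-led cells and Cxcl9 in 23.5% of Rsad2-led cells. Whether the 2 genes met less often than by chance was not tested. The median depths were close, 9271 UMIs in Cxcl9-led and 8835.5 in Rsad2-led cells. The gate on a sum makes cells with little of one gene need more of another, so the split itself is a description. Genes that go with Cxcl9 or Rsad2 can be parted by the same choice, so the counts between the sides are a description too. Genes were counted between the sides at 20 CPM or more. Of 5735, 118 were higher in Cxcl9-led cells (2.06%) and 244 lower (4.25%), with a median log2 ratio of −0.02.

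Type I effectors sided with Rsad2. Of 39 measured, 27 were lower in Cxcl9-led cells and none higher, with a median log2 ratio of −1.34. Ifit1 stood at 14.3 CPM in Cxcl9-led and 306 CPM in Rsad2-led cells, a ratio of 0.047 (0.023 to 0.085), and was found in 8 and 66 cells. Cmpk2 stood at 14.3 CPM against 171 CPM, and Ifit2 at 45.6 CPM against 405 CPM. Isg15 stood at 312 CPM against 983 CPM. Nucleic acid sensors followed with 7 of 18 lower, Rigi and Ifih1 among them, and Il15 stood at 44.3 CPM against 142 CPM.

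MHC class II sided with Cxcl9. Of 8 genes measured, 6 were higher in Cxcl9-led cells and none lower, with a median log2 ratio of 1.93. H2-Ab1 stood at 1471 CPM against 336 CPM, a ratio of 4.38 (3.86 to 4.99), and H2-Eb1 at 2066 CPM against 505 CPM. The invariant chain Cd74 stood at 4192 CPM against 1186 CPM. At 2000 UMIs H2-Ab1 was found in 59.2% of Cxcl9-led and 23.5% of Rsad2-led cells. Serpina3g stood at 447 CPM against 135 CPM, a ratio of 3.32 (2.69 to 4.11), and Ly6a at 1728 CPM against 502 CPM. Nos2 stood at 135 CPM against 50.3 CPM, and Ass1, which supplies it with arginine, at 116 CPM against 52.5 CPM. Il12b, the shared subunit of interleukins 12 and 23, stood at 72.9 CPM against 4.38 CPM, but came from 5 and 2 cells.

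The sides did not differ in every interferon list. Of 14 GTPases, 1 was higher and 1 lower in Cxcl9-led cells, with a median log2 ratio of 0.37. Of 21 MHC class I genes none passed 2-fold, with a median of 0.30. Ly6c2 stood at 202 CPM in Cxcl9-led and 355 CPM in Rsad2-led cells, within 2-fold, and was found in 41 of 76 against 37 of 98.

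Macrophage state genes were uneven between the sides. Tissue macrophage genes were lower in Cxcl9-led cells in 7 of 17 and none was higher, although the list took 1.02% of UMIs in Cxcl9-led and 0.974% in Rsad2-led cells. Alternative activation genes were lower in 6 of 17 and none was higher, and in 3 of 13 without genes mostly from 1 cell. Mrc1 stood at 104 CPM against 366 CPM, a ratio of 0.284 (0.220 to 0.364). Complement genes were higher in 4 of 10, C3 among them at 224 CPM against 85.3 CPM. Ctsk, an osteoclast protease, stood at 16.9 CPM against 740 CPM, but 1 cell gave 59.6% of it, and all 3 cells with 10 or more UMIs of osteoclast-like markers were Rsad2-led. Without these 3 cells, 4 of 17 alternative activation genes were lower in Cxcl9-led cells, none was higher, and 4 of 10 complement genes were higher. Without every cell that held 2 or more such UMIs, which left 57 Cxcl9-led and 82 Rsad2-led cells, 7 of 17 alternative activation genes were lower and 2 higher, and 2 of 9 complement genes were higher. Csmd1 stood at 181 CPM in Cxcl9-led cells and had no UMI in Rsad2-led cells, and 1 cell gave 97.9% of it.

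**Figure D4:**
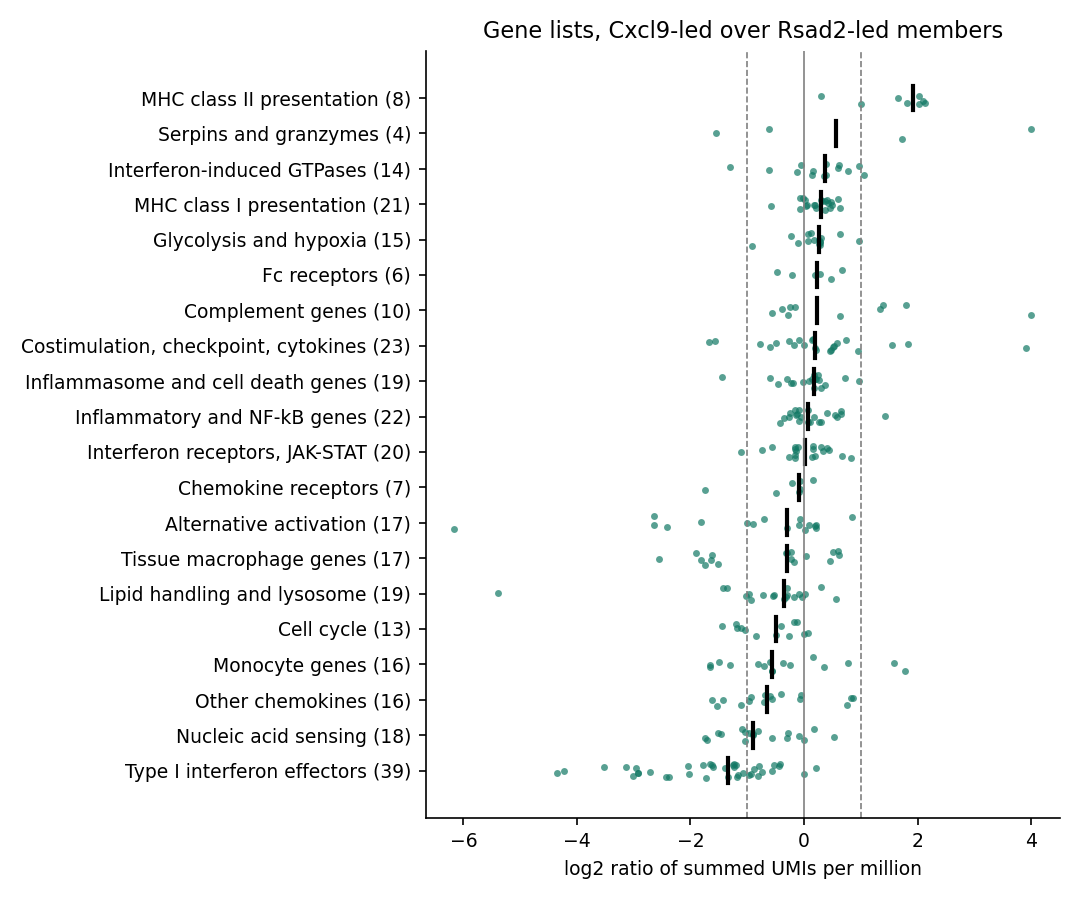
Each point is 1 gene, placed on the x axis by its log2 ratio of CPM in the 76 Cxcl9-led over the 98 Rsad2-led cells, with 1 row for each gene list and the number of genes measured in brackets; the bars are list medians and the dashed lines mark 2-fold. MHC class II genes lie on the Cxcl9 side, with a median of 1.93, and type I effectors on the Rsad2 side, with a median of −1.34.

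In 23 cells Cxcl9 and Rsad2 both reached 3 UMIs. Summed over these cells both programmes were present: type I effectors took 1.44% of their UMIs, against 0.815% in Cxcl9-led and 1.42% in Rsad2-led cells. MHC class II genes took 1.78%, against 1.50% in Cxcl9-led and 0.564% in Rsad2-led cells. GTPases took 0.371%, against 0.322% and 0.241%. Ly6c2 was found in 18 of the 23 cells and Serpina3g in 20. Alternative activation genes took 0.325%, below the 0.464% of Cxcl9-led and 0.764% of Rsad2-led cells. Single cells varied, and not each carried both programmes. In the cell with 3 Cxcl9 and 61 Rsad2 UMIs type I effectors took 3.28% and MHC class II genes 0.153%. The cell with 43 and 4 UMIs had 0.708% and 4.01%, and the cell with 4 and 11 had 4.05% and 2.11%. The 23 cells also belong to the sides, except where the 2 genes were equal.

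A further 28 cells had neither Cxcl9 nor Rsad2 and passed the gate almost entirely on Cxcl10, with 485 UMIs of it in 27 cells and 47 UMIs of Cxcl11. They were deeper than either side, with a median of 13281 UMIs. Part of the interferon programme went with their Cxcl10. Over all genes measured, 6.64% were higher than in the other macrophages and 9.41% lower. Type I effectors took 0.443% of their UMIs, against 0.329% in the other macrophages, with 6 of 36 genes higher and 1 lower. Isg15 stood at 62.3 CPM against 38.8 CPM, and Ly6c2 at 24.4 CPM against 24.5 CPM. MHC class II genes took 0.360% against 0.332%. The GTPases were higher in 8 of 14, at 0.0745% of UMIs against 0.0269%, and 4 of 22 MHC class I genes were higher.

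The cells without Cxcl9 and Rsad2 carried more cell cycle transcripts. Of 18 cell cycle genes 17 were higher than in the other macrophages, with a median log2 ratio of 1.79. Mki67, a protein of dividing cells, stood at 209 CPM against 43.2 CPM, and the DNA topoisomerase Top2a at 282 CPM against 54.4 CPM. Cells with 0.2% or more of their UMIs in cell cycle genes made up 15 of the 28 (53.6%, interval 33.9% to 72.5%). The share was 5.26% in Cxcl9-led cells, 8.16% in Rsad2-led cells and 9.52% in the other macrophages. The part of their greater depth in these values was not tested. Alternative activation genes were lower in 10 of 19 and none was higher, and Ctsd stood at 728 CPM against 2178 CPM.

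The share of windows with the promoter motif differed between the gene groups. Of 331 windows of the genes that were higher in the selected cells, 17.8% held GAAANNGAAA (13.9% to 22.4%), against 3.21% of the 9664 windows of all genes measured and 2.82% of those of the lower genes. RefSeq windows were found for 264 of the 353 higher genes. Among genes that were 4-fold or more higher the share was 29.0%. It was 56.1% in the type I effector list, 83.3% in the GTPases, 23.8% in MHC class I and 11.1%, 1 window of 9, in MHC class II. Between the sides, 13.7% of the windows of genes higher in Rsad2-led cells held the motif, 5.31% of those higher in Cxcl9-led cells and 4.03% of all windows measured there. A further motif, the gamma-activated site core TTCNNNGAA, was also searched for. It was in 11.5% of windows of the higher genes and 6.83% of all genes measured. Between the sides the shares were 7.84% for genes higher in Rsad2-led cells, 7.08% for those higher in Cxcl9-led cells and 6.75% for all.

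**Figure D5:**
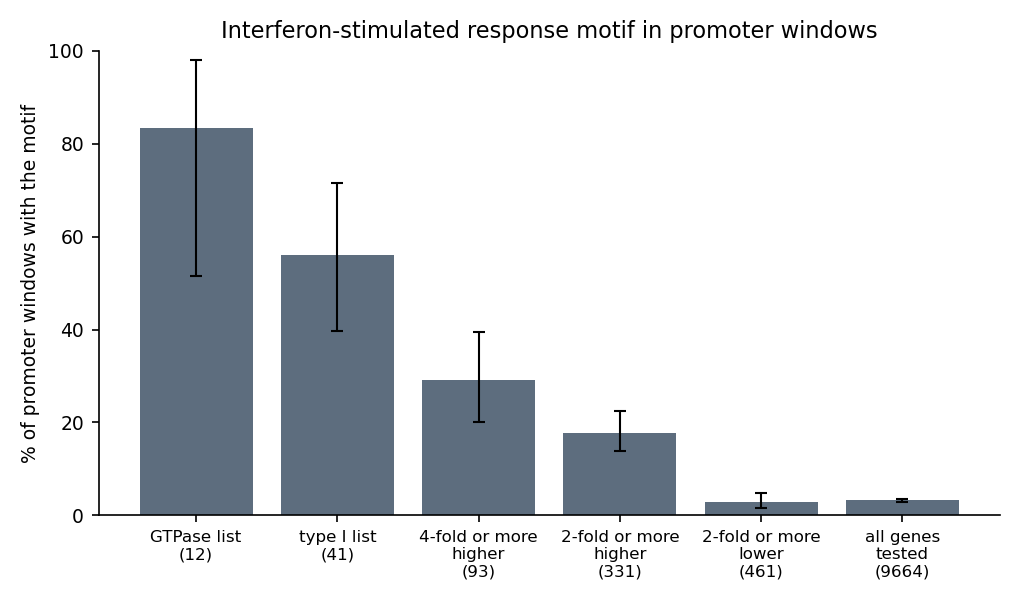
The bars give the percentage of RefSeq promoter windows that hold the interferon-stimulated response motif, for gene lists and for genes by their ratio in the selected cells over the other macrophages, with the number of windows in brackets and 95% exact intervals. The GTPase and type I effector lists stand at 83.3% and 56.1%, and all genes measured at 3.21%.

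The higher genes often lay side by side. Of 344 placed in the RefSeq gene order, 115 (33.4%) had an adjacent measured gene that was also higher, against 5.74% of the 8924 other genes. There were 18 runs of 3 or more such genes, holding 75 genes. The longest, 11 genes on chromosome 17, ran from H2-DMa to H2-Ea and holds the class II chains with Psmb9, Tap1, Psmb8 and Tap2. Others were Gbp5, Gbp7, Gbp3, Gbp2b and Gbp2 on chromosome 3, Gbp8, Gbp9, Gbp4 and Gbp6 on chromosome 5, Ifit2, Ifit3, Ifit1 and Htr7 on chromosome 19, and Ly6e, Ly6a, Ly6c1 and Ly6c2 on chromosome 15. Several runs are of duplicated genes, which can share reads.

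Kept cells with 10 or more UMIs of the 4 genes but 2% or more of neutrophil UMIs had a different make-up. In these 22 cells, at a median of 2049 UMIs, Cxcl9 gave 1.84% of the UMIs of the 4 genes, Cxcl10 47.5%, Cxcl11 5.25% and Rsad2 45.4%. In the selected cells these shares were 18.1%, 45.8%, 11.6% and 24.4%. Cxcl9 was found in 1 of the 22 cells and in 102 of the 205 selected cells, which were deeper, at a median of 9649 UMIs. The 4 genes chose both sets, so these values are a description, and the part of depth was not tested. Only 3 of the 22 cells failed the neutrophil gate alone.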

How the data were processed

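Per the labels' protocols, libraries were made with Chromium Single Cell 3′ v3 reagents. Deposited were unnormalised UMI counts, 1 value per gene in each barcode; per the file headers Cell Ranger 8.0.1 wrote them, and the submitters' processing notes list STAR beside it. The genome build is not given in the sources used here. The matrix held 12309 barcodes, 33696 genes and 96873409 UMIs. It was assigned to the treated library because it held all 10835 barcodes listed as treated and 37 of 11643 listed as control.

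The UMIs of each group of cells were summed, scaled to 1000000 per group (CPM) and compared as a ratio with the exact conditional 95% interval of Poisson counts, which covers counting error only. Log2 ratios had 0.5 counts added to each sum. Shares have exact Clopper-Pearson intervals. UMIs were counted at transcript 3′ ends, so no length scaling was used. With 1 library and no replicates there was no test. The ratio step was tested on simulated counts. Scrublet in scanpy 1.11.5 marked 0 cells as doublets by its own threshold and so had not worked, and removing the 5% with the highest scores was tried instead. Free RNA was not subtracted.

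The selected cells, and 20 gene lists of 376 genes, were chosen with earlier results of these data known. Of the list genes 2 were not found. Some list genes are not reported by name here. Named genes are the rule genes, the given markers, up to 3 genes per list with the largest absolute log2 ratio, and the 10 highest and 10 lowest outside the lists, apart from predicted, mitochondrial and ribosomal protein genes. The split into Cxcl9-led and Rsad2-led cells was added after the data were seen. Promoter windows came from RefSeq and were searched on both strands. Python 3.11.15, numpy 2.4.6, scipy 1.17.1 and pandas 2.3.3 were used.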

Additional observations from a re-analysis of the deposited data

How the results depend on the processing

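The interferon gate set how many cells were selected. A minimum of 5 or 20 UMIs in place of 10 gave 321 or 120 cells, and a gate at 0.2% of UMIs gave 133. Genes lower in the selected cells than in the other macrophages numbered 254, 674 and 823 under these settings and 188 over all barcodes, against 449, and 1011 against 631 for all other lineage cells with the gate at 0.2%. At 1 CPM or more in place of 5, 741 genes were higher and 992 lower, and 685 and 1333 against all other lineage cells. At 20 CPM these were 175 and 192, and 180 and 249. Between the sides, a minimum of 50 CPM gave 34 higher and 109 lower genes. The cause was not tested beyond the change in cells or genes that each setting makes. No other count over all genes moved by over 1.5 times when doublet scores, lymphocyte or osteoclast markers, scaling, weighting to equal depth or the mean over cells were changed.

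Of 260 list medians recomputed against the other macrophages 13 changed sign, in the monocyte, complement and serpin lists, and of 140 between the sides 8 did, in 5 lists; each of these medians lay within 2-fold as reported. Alternative activation was at −0.29 between the sides and at 0.03 without cells with 2 or more osteoclast-like marker UMIs. That setting also gave 3 higher complement genes against the other macrophages in place of 5, and 2 lower cell cycle genes between the sides in place of 5. Over all barcodes 2 complement genes were higher. The gate at 0.2% gave 10 lower alternative activation genes in place of 6 and 7 higher cell death genes in place of 3. Over all settings, 804 log2 ratios of named genes against the other macrophages stayed close, 188 moved and 9 turned. Fabp4 was at 1.73 with a minimum of 5 UMIs. Serping1 was at −0.13 and Csmd1 at −4.62 with the gate at 0.2%, and at −0.092 and −1.69 without cells with osteoclast-like marker UMIs. Csgalnact1 was at 0.0051 and Slco2a1 at 0.39 over all barcodes. Jchain was at 0.052 and Igkc at 0.74 without cells with lymphocyte marker UMIs. Between the sides, Csgalnact1 was at 0.23 without high doublet scores. Settings on osteoclast markers, on genes mostly from 1 cell and on the sides were chosen after seeing the data. No paired analysis was possible because only 1 library was analysed and it has no replicate numbers.

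Depth limits scarce genes: a gene at 5 CPM gives the selected cells few UMIs, and 1 cell can supply most of them.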

Other observations

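Several genes that fell short of 5 CPM over both groups, and so entered no count, were also high in the selected cells; they were picked out after their values were seen. Dnase1l3, a secreted nuclease, stood at 32.2 CPM in the selected cells and 0.690 CPM in the other macrophages, a ratio of 46.7 (29.6 to 75.4), and was found in 30 cells. Tnfsf10, the death ligand TRAIL, stood at 31.7 CPM against 1.36 CPM, a ratio of 23.4 (16.1 to 34.1). Il27, a cytokine of the interleukin 12 family, stood at 36.1 CPM against 3.15 CPM, a ratio of 11.4 (8.48 to 15.3), in 57 cells. Between the sides they parted: Dnase1l3 stood at 71.6 CPM in Cxcl9-led cells and 8.75 CPM in Rsad2-led cells, whereas Tnfsf10 stood at 18.2 CPM against 55.8 CPM.

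A further 20 kept cells held 10 or more UMIs of the 4 selecting genes and passed the neutrophil gate but held under 5 UMIs of Lyz2, Csf1r and Apoe. Cxcl9 gave 462 UMIs in 6 of them, which was 43.8% of their UMIs of the 4 genes, and Rsad2 13.9%.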
